A study of Homo sapiens with 6 samples.

Results

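The 30 genes described here encode the tricarboxylic acid (TCA) cycle and the entry of pyruvate into it. They also encode reactions that refill the cycle, turn its malate into pyruvate or pass its intermediates across the mitochondrial membrane. They were taken by symbol from a fixed list, and all 30 were found among the 60660 gene IDs of each file. The samples are 6 RNA-seq libraries of OCI-AML3, an established cell line from human acute myeloid leukaemia. In 3 libraries the cells carried an empty vector, named pLenti in the titles, and in 3 they overexpressed SLC2A3, the gene of the glucose transporter GLUT3. Cells of both groups received 250 µM vitamin C, so no group without the vitamin enters the comparison. The promoter of the vector, the number of clones and whether replicates were separate cultures are not given in the sources used here. P-values therefore measure only the spread between these libraries, which may be technical. The comparison asks whether more of a glucose transporter goes with other transcript levels of the enzymes that oxidise glucose carbon.

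Pyruvate made from glucose enters mitochondria through a carrier formed by MPC1 and MPC2. The pyruvate dehydrogenase complex then turns it into acetyl-CoA, and phosphatases switch that complex on while kinases switch it off. Citrate synthase joins acetyl-CoA to oxaloacetate, and the cycle returns oxaloacetate while it makes NADH for respiration. Carbon also enters as oxaloacetate through pyruvate carboxylase and as alpha-ketoglutarate from glutamate, a route that leukaemia cells are known to use heavily. Alpha-ketoglutarate is also the co-substrate of the dioxygenases for which vitamin C is a cofactor.

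SLC2A3 itself was at 1194, 1183 and 1257 normalised reads in the empty vector libraries and at 4056, 3716 and 4054 in the SLC2A3 libraries, as the labels say (log2 fold change 1.70, SE 0.057, limma adjusted p = 7.95e-18). Recovered reads numbered 31054462 to 35770556 per library. All 10 myeloid markers looked up (among them SPI1, CD33 and LYZ) were at a mean of at least 50, and their summed level was 46996 to 48503 against 46845 to 52076 normalised reads. Summed levels of 5 erythroid and 5 epithelial or kidney line markers were at most 4.79 and 9.00 in any library, with HBB, HBA1, KRT5 and KRT14 at 0. The T and NK cell list summed to 7389 to 7866, nearly all of it NCAM1, with CD3D and CD3E at 0. The fibroblast list summed to 22.4 to 54.1 against 35.2 to 96.9. The small cytoplasmic RNA RN7SL1 was at 538, 1812 and 705 in the empty vector group and at 2233, 6026 and 1922 in the SLC2A3 group. The part of these differences in the results below was not tested.

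None of the 30 genes passed the test of the difference between groups. All 30 were tested, since each reached a value of 1 in 3 or more libraries. Among all 28015 tested genes 1.49% passed at a limma adjusted p under 0.05, and the lowest adjusted p of any of the 30 was 0.191. Of the 30, 7 had an unadjusted limma p under 0.05, against 11.8% of all tested genes, 5 of them with a positive difference (background 5.63%) and 2 with a negative one (6.12%). Because most of the 30 are well expressed, the 27 with a mean of at least 100 were also read against the 11730 tested genes at that level. There, 6 of 27 had an unadjusted p under 0.05 beside 19.9% of genes, and none was called beside 3.45%. Groups did not overlap for 4 of 30 genes (PDHA1, PDP2, OGDHL and SUCLG2), against 16.3% of all tested genes, and for 3 of the 27 beside 23.7%. The count tests also called none of the 30. edgeR gave 7 of 29 an unadjusted p under 0.05, beside 15% of all its genes, of which it called 3.29%. DESeq2 gave 6 of 27 an unadjusted p under 0.05, beside 21.5%, and called 9.27%. Its shares are over only the 8633 genes left with an adjusted p by its default filtering.

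The intervals say how large a difference these libraries leave room for. The 95% interval of the fold change lay wholly between a 25% increase and the inverse decrease for 25 of the 30, beside 29.8% of all tested genes. At a mean of at least 100 it did so for 25 of 27, beside 71.1%. The exceptions were PDP1 and PDP2, whose intervals stayed within 1.5-fold, and the low-level genes OGDHL, ME3 and GOT1, whose intervals did not. Within 1.5-fold lay 27 of the 30, beside 41.7% of all tested genes, and 27 of the 27 beside 95.9%. The median log2 difference was 0.039 over the 30 and 0.0014 over all tested genes, with 19 above 0 and 11 below. The median size of the log2 difference was 0.068 over the 30, against 0.181 over all tested genes. Over tested genes with a mean of at least 100 it was 0.081. Replicates of the 27 well-expressed genes were close, with a median coefficient of variation of 4.37% within a group and a highest of 15.8%.

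**Figure D1:**
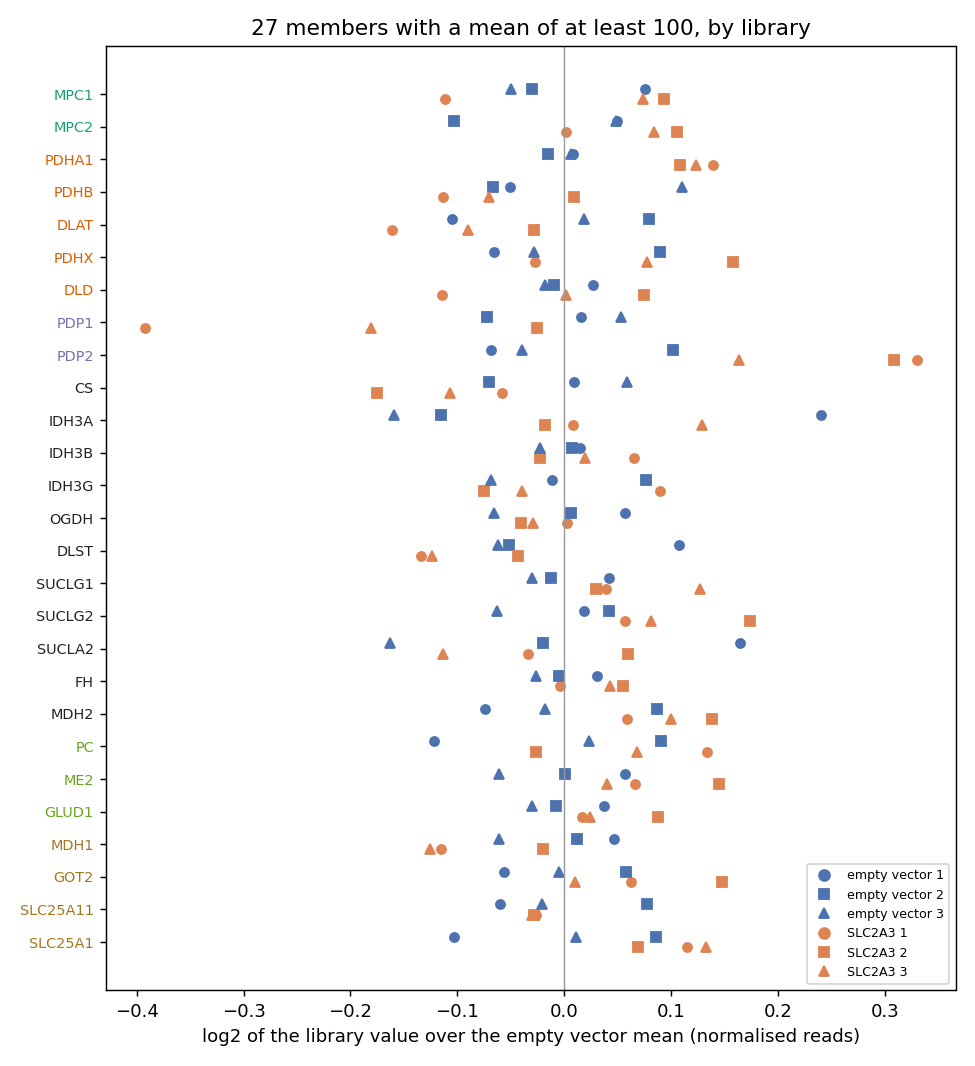
Values of the 27 genes with a mean of at least 100 normalised reads. The x axis is the log2 of each library's value over the empty vector mean. Blue symbols are the 3 empty vector libraries and orange symbols the 3 SLC2A3 libraries, and gene names are coloured by role. The colours are mixed for most genes and are apart for PDHA1, PDP2 and SUCLG2.

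**Figure D2:**
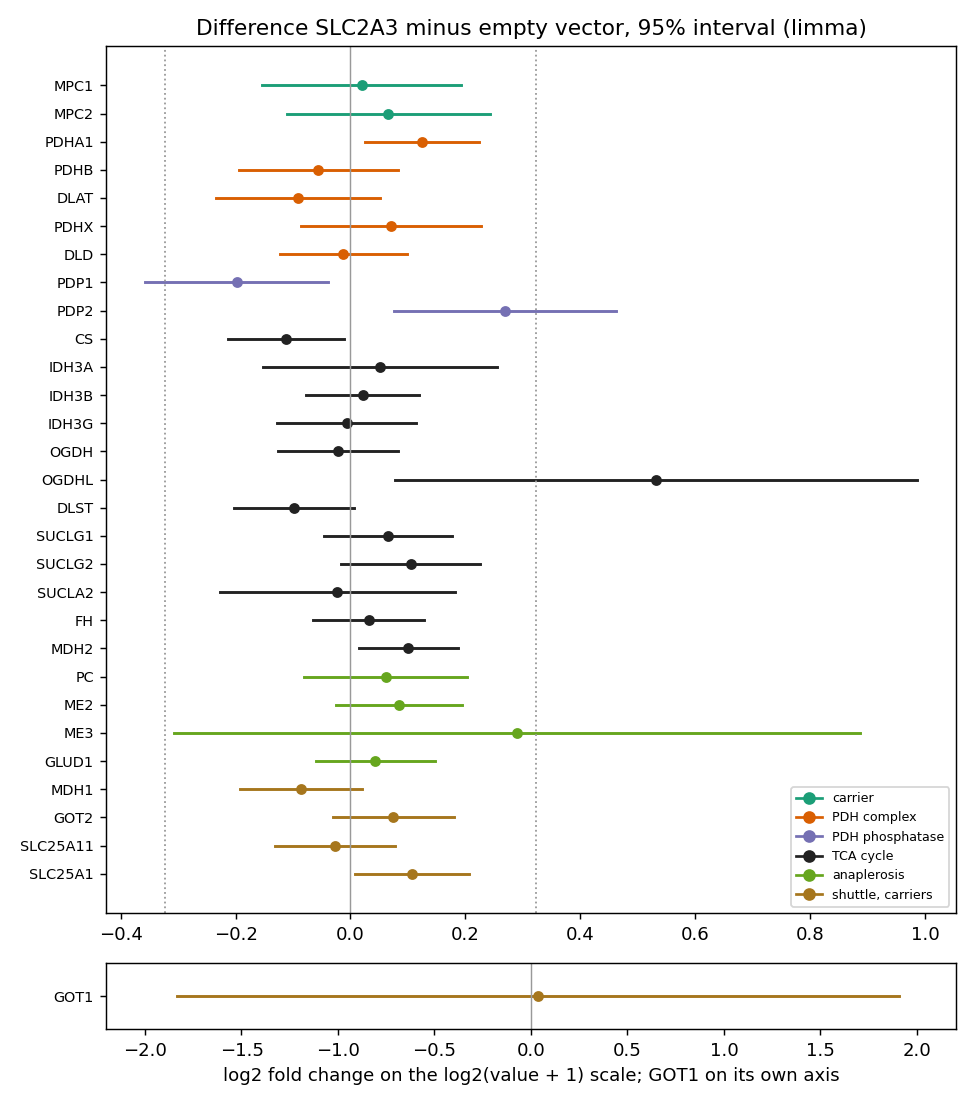
Log2 difference, SLC2A3 minus empty vector, for the 30 genes on the log2(value + 1) scale. Points are limma estimates, lines are 95% intervals, colours are roles and dotted lines mark a 25% increase and its inverse. GOT1 is on its own axis, where its interval runs from -1.83 to 1.91.

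GOT1, the cytosolic aspartate aminotransferase, was almost without reads in both groups. This enzyme serves the malate-aspartate shuttle, which carries reducing equivalents from cytosolic NADH into mitochondria. GOT1 (ENSG00000120053.12, chromosome 10, 99396870 to 99431569, minus strand, GRCh38) was at 4.07, 0 and 14.0 normalised reads in the empty vector libraries and at 11.1, 5.75 and 0 in the SLC2A3 libraries, 36 recovered reads in all. Each group had a library with no GOT1 read, and a count of 0 leaves room for up to 3 reads. Gene counts do not tell a missing transcript from reads that the counting left out. The groups overlapped completely (log2 fold change 0.04, SE 0.91, limma adjusted p = 0.996). GOT2, the mitochondrial enzyme of the same reaction, stood at 3577 ± 142 and 3766 ± 182 (SD, n = 3 per group). Per kilobase of exon GOT2 had 950 normalised reads in the empty vector group and GOT1 1.79.

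Neighbouring genes on chromosome 10 did not share one level, and the plot of levels around GOT1 shows both kinds. Within 800 kb, CNNM1, GOT1-DT and NKX2-3, the nearest genes on either side, had 2 reads each over the 6 libraries, and HPSE2 had 1. GOT1-DT is the noncoding RNA that starts beside GOT1 on the opposite strand and overlaps its first bases. The next gene, SLC25A28, a mitochondrial iron carrier, was at 717 ± 37.1 and 739 ± 32.6 normalised reads. COX15, needed to make the haem of cytochrome oxidase, was at 1879 ± 146 and 1936 ± 194. GOT1, with 36 reads, was the lowest of the 30 genes, and its nearest neighbours had fewer reads still. From SLC25A28 on, every named protein-coding gene within the window except CPN1 had a mean above 50.

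**Figure D3:**
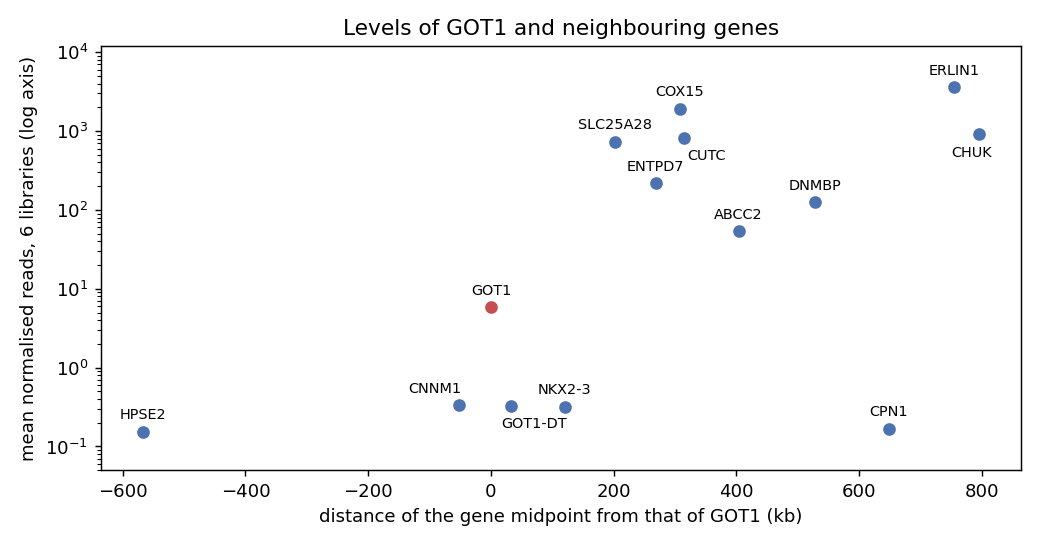
Mean normalised reads over 6 libraries (y, log axis) of GOT1, in red, and of the named protein-coding genes and GOT1-DT within 800 kb, in blue. The x axis is the distance between gene midpoints in kb. GOT1, CNNM1, GOT1-DT and NKX2-3 lie low, and ENTPD7, SLC25A28, CUTC, COX15, ERLIN1 and CHUK lie at 218 or above.

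Among the other genes of the shuttle and of mitochondrial carriers, the malate-alpha-ketoglutarate carrier SLC25A11 and the citrate carrier SLC25A1 were abundant. SLC25A1, which exports citrate for lipid synthesis, was at 5327, 6074 and 5769 normalised reads in the empty vector libraries and at 6196, 6004 and 6273 in the SLC2A3 libraries. Only empty vector replicate 2 reached into the range of the SLC2A3 group (log2 fold change 0.11, SE 0.048, limma adjusted p = 0.364, unadjusted p = 0.0342). SLC25A11 differed by -0.03 on the log2 scale, and its 3 SLC2A3 libraries lay within 3329 to 3337 normalised reads. Cytosolic malate dehydrogenase MDH1, which makes malate for the shuttle, had log2 fold change -0.09 and GOT2 0.07, with adjusted p of 0.563 and 0.649.

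Levels per kilobase of exon placed the cycle's enzymes in the empty vector group over a wide range, from mitochondrial malate dehydrogenase to the low isoforms. MDH2, which closes the cycle by making oxaloacetate, was the highest of the 30 at 3695 ± 210 per kb, followed by SLC25A1 at 2731 ± 179 and fumarase, FH, at 1881 ± 37.6 (SD, n = 3). The isocitrate dehydrogenase subunit IDH3B, at 1531 ± 21.1, and SLC25A11, at 1274 ± 63.0, came next. These neighbours in the order did not overlap within 1 SD. DLST, the succinyltransferase core of the alpha-ketoglutarate dehydrogenase complex, followed at 1032 ± 69.0, and GOT2, at 950 ± 37.7, overlapped it within 1 SD. At the other end stood SUCLA2 at 51.1 ± 5.85, PDP2 at 49.8 ± 3.19, OGDHL at 11.5 ± 2.26, ME3 at 11.3 ± 3.34 and GOT1 at 1.79 ± 2.14. On this scale SUCLA2 and PDP2 differed by less than their spread, as did OGDHL and ME3. The order depends on the gene model. With the longest principal transcript in place of all exons, MDH2, SLC25A1 and GOT1 held their places. IDH3B, at 2543 ± 35.1 per kb, then stood above FH, at 2242 ± 44.8. SUCLA2, at 208 ± 23.8, then stood beyond the spread above PDP2, at 58.3 ± 3.74, while ME3 and OGDHL changed places within their spread. MDH1 moved from place 12 to 5 and SUCLG1 from 16 to 9. A level per kb is a transcript level, and in a bulk library fewer cells with a transcript and less of it per cell cannot be told apart.

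**Figure D4:**
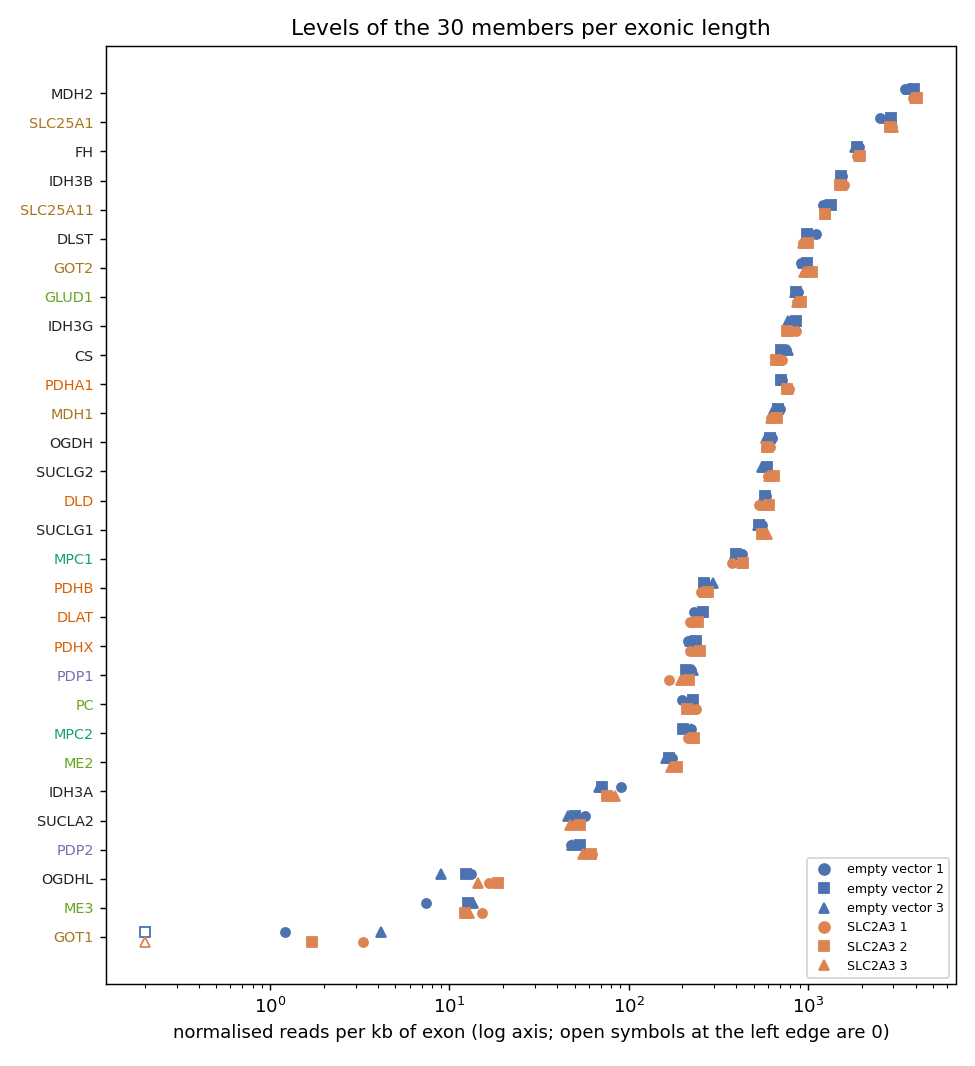
Normalised reads per kb of exon (x, log axis) of the 30 genes in each library, ordered by the empty vector mean, with names coloured by role. Blue is empty vector, orange is SLC2A3, and open symbols at the left edge are libraries at 0. MDH2 is at the top near 3695, and GOT1 at the bottom has 2 libraries at 0.

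Pyruvate entry showed no called change. The carrier subunits MPC1 and MPC2, which work as a heterodimer, were at 631 ± 29.9 and 549 ± 32.9 normalised reads in the empty vector group and at 641 ± 49.1 and 574 ± 21.6 in the SLC2A3 group (SD, n = 3). MPC1, the higher of these per kb, was at 665, 618 and 610 against 584, 673 and 664, and the groups overlapped throughout. The difference could be bounded: the intervals of the fold change ran from 0.899 to 1.14 for MPC1 and from 0.926 to 1.18 for MPC2.

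In the pyruvate dehydrogenase complex, the catalytic alpha subunit PDHA1, which carries the phosphorylation sites that switch the complex off, had the smallest p. PDHA1 (chromosome X, 19343893 to 19361705) was at 3226, 3172 and 3222 normalised reads in the empty vector libraries and at 3532, 3458 and 3492 in the SLC2A3 libraries. Every SLC2A3 library lay above every empty vector library, with 1.09 as the fold and an interval of 1.02 to 1.17. It did not pass in limma (unadjusted p = 0.0166, adjusted p = 0.264), and its lowest adjusted p over 18 alternatives was 0.0722, with DESeq2. Its partner PDHB, the beta subunit of the same decarboxylase, had log2 fold change -0.06, and the acetyltransferase core DLAT -0.09. The binding protein PDHX, which anchors DLD to that core, had 0.07, and DLD, the dihydrolipoyl dehydrogenase shared with the alpha-ketoglutarate dehydrogenase complex, -0.01. Adjusted p for these 4 lay between 0.693 and 0.968. Per kb of exon PDHA1 was 2.60 ± 0.162 times PDHB in the empty vector group and 2.94 ± 0.156 times in the SLC2A3 group, and 1.14 ± 0.071 and 1.29 ± 0.0687 times by principal transcript. The testis form PDHA2 had 0 reads in every library.

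The phosphatases that remove the inhibitory phosphates from PDHA1 differed in opposite directions, and neither passed. PDP2 (chromosome 16, 66878589 to 66895754) was at 397, 447 and 405 normalised reads in the empty vector libraries and at 524, 516 and 467 in the SLC2A3 libraries. The groups did not overlap, and the log2 fold change of 0.27 (SE 0.094) was the largest of the 27 well-expressed genes, with an unadjusted p = 0.00823 and an adjusted p = 0.191 in limma. PDP1 (chromosome 8, 93857807 to 93926066), the calcium-stimulated isoform, was at 1252, 1178 and 1285 against 943, 1217 and 1093. SLC2A3 replicate 2 lay within the empty vector range and the other two lay below it (log2 fold change -0.20, SE 0.078, unadjusted p = 0.0167, adjusted p = 0.265). PDP1 did pass without replicate 2 of each group, the library highest in RN7SL1 within its group, with 2 libraries left per group. Its log2 fold change was then -0.32 (limma adjusted p = 0.0195). That alternative was chosen after seeing the data. It left out the lowest PDP1 value of the empty vector group and the highest of the SLC2A3 group, so the difference had to widen. RN7SL1 was still higher in both SLC2A3 libraries kept than in both empty vector libraries kept. The pass of PDP1 was the only call of any of the 30 over the 18 alternatives. PDP1 was 4.70, 3.93 and 4.73 times PDP2 per kb of exon in the empty vector libraries and 2.69, 3.52 and 3.49 times in the SLC2A3 libraries, with no overlap. Such a lack of overlap was not particular to this pair. The ratios of OGDH to OGDHL, MDH2 to MDH1 and PDHA1 to PDHB did not overlap either, while those of the other pairs compared did. PDP2, OGDHL and PDHA1 already did not overlap on their own, and the share among ratios of other genes was not computed. The sum of PDP1 and PDP2, 1655 ± 32.8 against 1586 ± 135 normalised reads, differed by less than the spread of the SLC2A3 group.

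**Figure D5:**
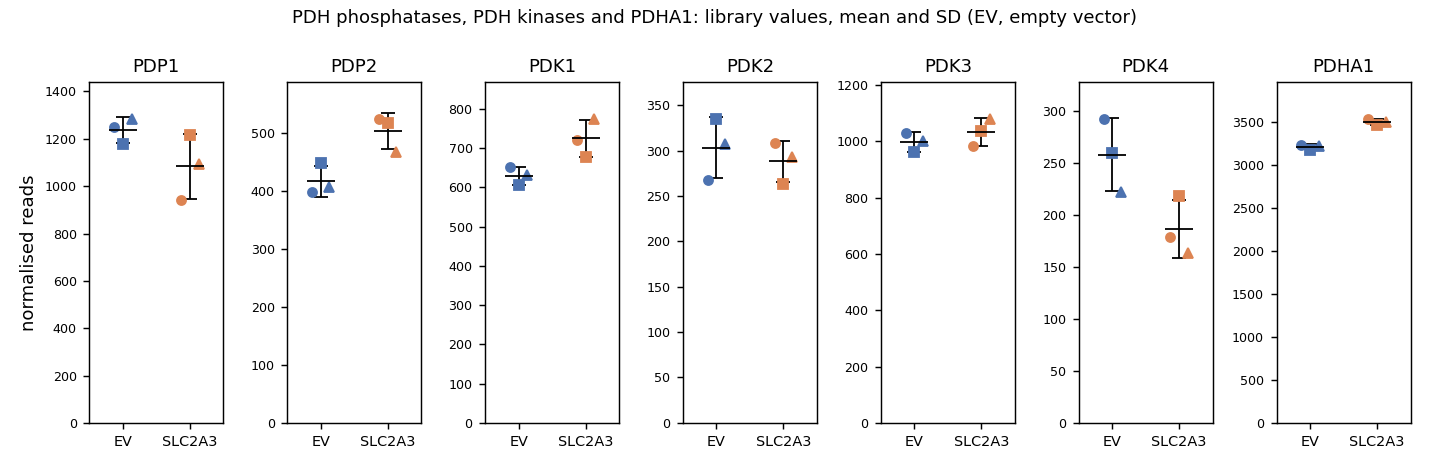
Normalised reads of the PDH phosphatases PDP1 and PDP2, the PDH kinases PDK1 to PDK4 and the PDH subunit PDHA1 in each library. Symbols are libraries, lines are means and bars are SD, with empty vector (EV) in blue and SLC2A3 in orange, and every y axis starts at 0. The groups are apart for PDP2, PDK1, PDK4 and PDHA1, as for 16.3% of all tested genes, or 23.7% at a mean of at least 100. None of these passed in limma with the filter on low values used throughout, and PDK4 passed with no filter.

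Of the 12 cycle enzymes, 7 differences were positive and 5 negative, none was called (beside 1.49% of all tested genes), and 3 had an unadjusted p under 0.05 (beside 11.8%, or 19.9% at a mean of at least 100). MDH2 was at 12782, 14288 and 13293 normalised reads in the empty vector libraries and at 14016, 14811 and 14421 in the SLC2A3 libraries. Its groups overlapped through empty vector replicate 2 and SLC2A3 replicate 1 (log2 fold change 0.10, SE 0.042, adjusted p = 0.309). Citrate synthase, CS, the first step of the cycle, was at 4826, 4565 and 4993 against 4607, 4247 and 4454. Again empty vector replicate 2 lay inside the other group's range (log2 fold change -0.11, SE 0.049, adjusted p = 0.347).

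OGDHL, a relative of the alpha-ketoglutarate dehydrogenase subunit OGDH that is best known from brain, had the largest difference of the 30. OGDHL was at 75.4, 71.0 and 51.1 normalised reads in the empty vector libraries and at 94.7, 107 and 82.2 in the SLC2A3 libraries. The groups did not overlap, but few reads gave a wide interval, 1.05 to 1.98-fold (log2 fold change 0.53, SE 0.22, unadjusted p = 0.0237, adjusted p = 0.31 in limma). The main isoform OGDH was at 3183 ± 136 and 3134 ± 48.4, and made up 98.0% and 97.1% of the reads of the pair. SUCLG2, which gives succinyl-CoA synthetase its GTP-forming activity, was at 1810, 1839 and 1710 against 1858, 2015 and 1890, without overlap (log2 fold change 0.10, adjusted p = 0.524). SUCLA2, the subunit of the ATP-forming enzyme, had -0.02, and SUCLG1, the subunit common to both, 0.07. Per kb of exon SUCLG2 was 11.4 ± 1.02 times SUCLA2 in the empty vector group, but 3.67 ± 0.328 times by principal transcript.

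The remaining cycle enzymes had an unadjusted p above 0.05. Log2 differences of the isocitrate dehydrogenase subunits IDH3A, IDH3B and IDH3G, which form the NAD-dependent enzyme, were 0.05, 0.02 and -0.01. IDH3A, the catalytic subunit, was at 619, 484 and 470 against 527, 518 and 574, and empty vector replicate 1 alone lay above the SLC2A3 group. Per kb of exon IDH3B was 20.2 ± 2.75 times IDH3A and 1.89 ± 0.0799 times IDH3G in the empty vector group, and 20.3 ± 2.76 and 1.71 ± 0.0725 times by principal transcript. IDH3A is the subunit present in more copies in the enzyme. FH and OGDH had 0.03 and -0.02, with adjusted p of 0.872 and 0.927. DLST had -0.10, of the size of the MDH2 and SUCLG2 differences, with an unadjusted p = 0.064 and an adjusted p = 0.466 in limma.

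Genes that refill the cycle, GLUD1 and PC, and the malic enzymes ME2 and ME3 had 4 of 4 positive differences. Of all tested genes 50.3% had one. None of these 4 was called, where 1.49% were, and 0 had an unadjusted limma p under 0.05, where 11.8% had. GLUD1, which turns glutamate into alpha-ketoglutarate, was the highest of them per kb, at 3112, 3016 and 2971 normalised reads in the empty vector libraries and at 3069, 3223 and 3083 in the SLC2A3 libraries. The groups overlapped, and the interval of its fold change was 0.959 to 1.11. Its close copy GLUD2 had at most 3.20 normalised reads in a library. Pyruvate carboxylase, PC, was at 1280 ± 95.1 and 1335 ± 74.2 (log2 fold change 0.06, adjusted p = 0.819). Of the mitochondrial malic enzymes, which turn malate into pyruvate, ME2 was at 2734 ± 112 and 2899 ± 111 (log2 fold change 0.08, adjusted p = 0.594). ME3 was low, at 28.5, 49.0 and 52.1 against 58.5, 47.0 and 49.1, and its fold interval of 0.808 to 1.85 is wide to either side.

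Of 47 other genes of the pathway, 44 were tested, and 1 was called higher (background 0.692%) and 0 lower (0.8%), with 10 at an unadjusted p under 0.05 (beside 11.8%, or 19.9% at a mean of at least 100). The called gene was LDHA, the lactate dehydrogenase subunit that favours making lactate from pyruvate. LDHA was at 16770, 16450 and 16254 normalised reads against 18854, 19588 and 19162 (log2 fold change 0.22, limma adjusted p = 0.000861), and it was called under every one of the 18 alternatives. Among the pyruvate dehydrogenase kinases, PDK1, a hypoxia-inducible isoform, had log2 fold change 0.20 and PDK4, a starvation-inducible isoform, -0.47 (adjusted p = 0.281 and 0.101). PDK2 and PDK3 had -0.07 and 0.05. PDK4 was at 292, 259 and 222 against 178, 218 and 163 and was called with no filter on low values (adjusted p = 0.0465).

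Of 10 genes for aconitase, the NADP-dependent isocitrate dehydrogenases and succinate dehydrogenase, IDH2 had the smallest p. It was at 6781, 6726 and 6893 normalised reads against 6276, 6120 and 5975, without overlap (log2 fold change -0.15, limma adjusted p = 0.0793). IDH2, the mitochondrial enzyme that makes NADPH and alpha-ketoglutarate from isocitrate, was called under 5 of 18 alternatives, edgeR with TMM (adjusted p = 0.0414) and DESeq2 (0.00397) among them. In the other lists the smallest p belonged to GPT2, the mitochondrial alanine aminotransferase (0.18, adjusted p = 0.213), PCK2, the mitochondrial phosphoenolpyruvate carboxykinase (0.16, adjusted p = 0.277), and HLCS, which attaches biotin to carboxylases such as PC (-0.16, adjusted p = 0.457). PCK1, the cytosolic counterpart of PCK2, had 0 reads in every library.

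Reads of 11 of the 30 genes could be mixed with those of a gene on the opposite strand where exons are shared, which was not checked. GENCODE 29 places another gene with a mean of at least 50 over their spans, introns included. How counting treated strand is not stated in the sources used here. The highest of these overlapping genes was SSR4 over IDH3G, at 4979 normalised reads against 2201. Relative to the gene it covers, the largest was DCAF6 over MPC2, at 2147 against 562. None of the 11 is on the same strand. Of 28 pseudogene copies of the 30 genes, 1 had a mean of at least 50, GLUD1P3, at 2.92% of GLUD1.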

How the data were processed

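Gene-level RNA-seq values of 6 OCI-AML3 libraries, 3 per group, were used. Per the submitters' processing notes, BWA, TopHat2 and hg38 were used, with no roles or versions given. The deposited values are a normalised signal. 100% of them were whole multiples of 1 step per library (tolerance 0.001 reads), so the deposited signal is read counts divided by 1 factor per library (0.936 to 1.08), which gave back whole reads. Of 60660 IDs, 60641 matched the gene name table or GENCODE 29, the source of coordinates (1-based, GRCh38) and exonic lengths, and the authors' own annotation may be another.

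The log2 of value + 1 was fitted for the 28015 genes that reached a value of 1 in 3 or more libraries, with limma 3.58.1 (trend, group as the only term) in R 4.3.3. P-values were adjusted by Benjamini-Hochberg over all of them, threshold 0.05. Fold changes are on that scale, which understates changes of low genes. Intervals are 95%. Alternatives used edgeR 4.0.16, DESeq2 1.42.0 and limma-voom on recovered reads, and other filters, pseudocounts and scalings. On simulated counts for this comparison (28476 genes), changes were given only to genes with a mean of at least 50. There limma found 79% of the 100 genes given a 1.5-fold change and 91% of the 100 given a 2-fold change. Of its 177 calls, 7 were false. These rates do not cover lower genes such as GOT1. Smaller changes were not simulated.

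Members, lists and tests were chosen with earlier results of these data known. All 30 genes are named. Values of every library are given for those with an unadjusted p under 0.05 or a call under any alternative, for the highest per kb in each role, and for low genes. SUCLG2, IDH3A and PDK4 were added after their values were seen. Of the other genes, those called, or the smallest p per list, are named; the other kinases, PCK1, PDHA2 and GLUD2 were added after their values were seen. No replicate pair agreed within sampling noise (chi-square per gene 3.50 to 6.78). The result of 1 marker list is not reported here.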

Additional observations from a re-analysis of the deposited data

How the results depend on the processing

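Over the 18 alternatives, 19 of the 30 genes kept the sign of their log2 difference, and none of the other 11 was called under any of them. PDP1 was the 1 gene called, at -0.32 without replicate 2 of each group, the library highest in RN7SL1 within its group. That alternative was chosen after seeing the data and left out the PDP1 values that brought its groups closest. The sign turned for IDH3G with upper-quartile scaling in edgeR (0.0020) and for GOT1 with DESeq2 with or without independent filtering (-0.089). Without replicate 2 of each group it turned for MPC1 (-0.032), MPC2 (-0.0060), IDH3G (0.065), GOT1 (-1.32) and SLC25A11 (0.012). The cause was not tested. With each library left out in turn, the range crossed 0 for DLD (-0.056 to 0.038), GOT1 (-1.01 to 1.09), IDH3A (-0.022 to 0.18), IDH3B (-0.0013 to 0.043), IDH3G (-0.056 to 0.032), MPC1 (-0.017 to 0.085), OGDH (-0.054 to 0.0071), PDHB (-0.089 to 0.00041), SLC25A11 (-0.057 to 0.012) and SUCLA2 (-0.10 to 0.062). Of the other genes of the pathway, 2 in place of 1 were called with edgeR and TMM, limma-voom, DESeq2 with or without independent filtering and the filter at 10, LDHA and IDH2 in each. They were LDHA and PDK4 with no filter, and LDHA and SLC25A10 without replicate 2 of each group. DESeq2 called 800 of all genes, giving adjusted p for fewer of them, and leaving out 1 library, with fewer samples, gave 188 to 466 in place of 418. The lowest were 188 without SLC2A3 overexpression replicate 3, and, without empty vector replicate 3 or 1, 221 and 264. Same-numbered libraries did not deviate together over 13277 genes (r of -0.079, -0.0022 and -0.0038). RN7SL1, though, was highest in replicate 2 of both groups, at 1812 and 6026 normalised reads. Whether same-numbered libraries shared a batch was not tested. A replicate block called 0 of the 30 genes and 363 of all genes, with an SLC2A3 log2 fold change of 1.70. Few reads limit GOT1, ME3 and OGDHL, to which DESeq2 gave no adjusted p with its default filtering.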
